A study of Homo sapiens with 6 samples.

Results

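The aldo-keto reductases are a family of enzymes that use NADPH to reduce aldehydes and ketones, among them sugars, steroids, prostaglandins, retinal and drug carbonyls, to alcohols. This account covers 8 of their genes, AKR1A1, AKR1B1, AKR1B10, AKR1C1, AKR1C2, AKR1C3, AKR7A2 and AKR7A3, taken by name from the 63140 genes of the deposited count table. Levels were compared between NOZ-R and NOZ, with 3 RNA-seq libraries each. NOZ is an established human gallbladder cancer cell line. NOZ-R is its gemcitabine-resistant derivative, obtained by raising the dose of this nucleoside analogue step by step. Whether NOZ-R was grown from 1 clone, and whether gemcitabine was in the medium at harvest, is not stated in the labels. All 8 genes had enough counts to be tested.

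Several of these genes are known in other tissues as targets of NRF2 (gene NFE2L2), a transcription factor that KEAP1 and CUL3 mark for degradation and that oxidants and electrophiles stabilise. The AKR1C enzymes are hydroxysteroid dehydrogenases: AKR1C1 inactivates progesterone, AKR1C2 inactivates dihydrotestosterone, and AKR1C3 makes testosterone and F-type prostaglandins. AKR1B1 is aldose reductase, the first enzyme of the polyol pathway, and AKR1B10 is a related enzyme that is efficient on retinal. AKR1A1 is aldehyde reductase, and AKR7A2 and AKR7A3 reduce aflatoxin dialdehyde and similar compounds.

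Library totals ran from 14136037 to 19244923 counts. NOZ replicate 2 stood apart from the other NOZ libraries: the mean chi-square per gene was 11.2 and 9.83 in its pairs and between 2.19 and 4.1 in all other pairs within a line. The labels do not say whether replicates were separate cultures, so p-values rest only on the spread of these libraries, and that spread may be technical. Over all tested genes, 30.4% were higher and 29.8% lower in NOZ-R. Of 15 biliary epithelial markers, 12 were tested, 7 were higher (58.3%) and 3 lower (25.0%). KRT19 had 13374 to 19311 counts per library, while KRT17 had 20 to 28 in NOZ and 239 to 274 in NOZ-R, and CFTR had 0 in every library. The 3 lower markers were CDH1 (log2 fold change -1.83), MUC5AC (-1.13) and EPCAM (-0.56). Of 12 fibroblast markers, 7 were tested, 4 were higher and 1 was lower in NOZ-R, and their summed level was between 421.3 and 447.6 CPM (counts per 1e6 counts, with scaled library sizes) in the parental and between 1138 and 1213 CPM in the resistant line, most of it VIM. POSTN, FAP, DCN and LUM had 0 counts in NOZ and were counted in every NOZ-R library, POSTN 57 to 62 times, FAP 14 to 20 times and DCN and LUM 5 to 19 times. ACTA2 was the lower one (log2 fold change -0.46), COL1A1 did not pass (-0.54), and THY1 had at most 1 count in any library. The part of the fibroblast markers in the results was not tested. The 10 leukocyte markers, 3 of them tested and 2 higher, summed to 3.822 to 6.39 CPM in the parental and 6.571 to 7.495 CPM in the resistant libraries. PTPRC among them, not tested, had 7 to 28 counts in NOZ and 2 to 5 in NOZ-R. The 6 endothelial markers, with PECAM1 the 1 tested and higher, summed to 2.573 to 3.395 CPM and 9.177 to 10.16 CPM, respectively. PECAM1 made up most of that sum, at 1.83 to 1.95 CPM in NOZ and 8.57 to 9.66 CPM in NOZ-R. TEK, not tested, had 2 to 12 counts in NOZ and 0 to 2 in NOZ-R. Of 11 hepatocyte markers, SERPINA1 was higher (log2 fold change 1.85), CPS1 was close to its parental level (-0.06), and ALB, TTR and APOB had at most 2 counts in any library. The 11 summed to 41.99 to 42.21 CPM in the parental and 77.8 to 85.36 CPM in the resistant libraries.

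The genes AKR1C1, AKR1C2 and AKR1C3 lie side by side on chromosome 10, and their coding sequences are so alike that short reads cannot always be given to 1 of them. The coding sequences of AKR1C1 and AKR1C2, 972 bases each, were identical at 98.05% of positions and differed at 19 bases, while AKR1C3 differed from them at 83 and 87 bases. A stretch from codon 41 to codon 70 shows where the 3 can and cannot be told apart. Capitals mark the 8 bases of this stretch that are not the same in all 3 genes (GENCODE release 29, GRCh38).
AKR1C1: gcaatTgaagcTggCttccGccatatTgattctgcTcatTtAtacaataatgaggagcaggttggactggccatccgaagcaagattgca
AKR1C2: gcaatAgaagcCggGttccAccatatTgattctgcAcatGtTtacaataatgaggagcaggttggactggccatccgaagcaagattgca
AKR1C3: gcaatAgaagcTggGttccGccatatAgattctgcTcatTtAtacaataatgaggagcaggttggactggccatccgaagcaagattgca
All 8 differing bases fall in the first part of the stretch, and the rest is the same in the 3 genes. Of all 100-base windows of the coding sequence, 21.0% in AKR1C1, 26.7% in AKR1C2 and 9.74% in AKR1C3 also occurred in a transcript of another gene, and for 150-base windows the shares were 4.98%, 7.65% and 2.67%. Bases outside the coding sequence were not compared, so these shares do not give the part of the counts that is ambiguous. No source used here gives the read length or the counting rule for such reads, so the split of counts among these 3 genes is uncertain. AKR7A3 shared 11.9% of its 100-base windows, with AKR7L and AKR7A2, AKR1B10 shared 3.52% with AKR1B15 and AKR1B10P1, AKR7A2 shared 0.51%, and AKR1A1 and AKR1B1 shared none. AKR1C2 also overlaps an annotated antisense transcript, and no step that marks strand is described.

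Of the 8 genes, 5 were higher and 1 was lower in NOZ-R, and 2 did not pass (edgeR's quasi-likelihood test, Benjamini-Hochberg adjusted p below 0.05). The 5 higher genes were AKR1C1, AKR1C2, AKR1C3, AKR1B10 and AKR1B1, each with an estimated change of at least 2-fold. For AKR1B1 and AKR1C2 the estimate was under 2-fold with scaling by library size alone (log2 fold change 0.95 for each) and after GC correction (0.96 and 0.99). Over all 14386 genes tested, 60.2% were called, 30.4% higher and 29.8% lower. A called change of at least 2-fold was found upward in 8.96% and downward in 7.57% of them. The libraries of the lines did not overlap for these 5 genes or for AKR1A1, the lower one, against 32.9% of all tested genes without overlap upward and 32.4% downward. The median log2 fold change was 1.08 over the 8 genes and -0.01 over all tested genes. Leaving out NOZ replicate 2 gave 5 higher and 2 lower genes, the second being AKR7A2.

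**Figure D1:**
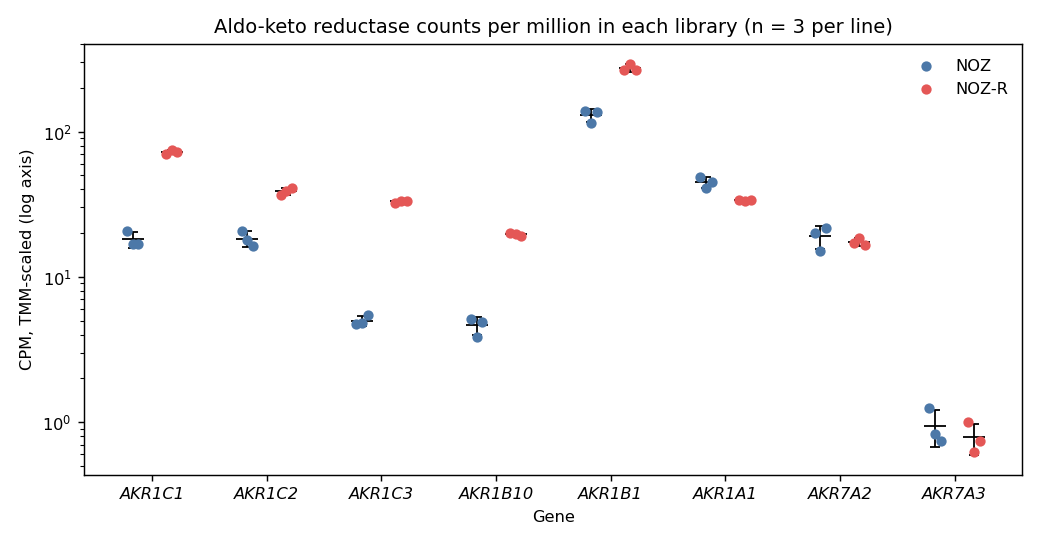
Level of each aldo-keto reductase gene in every library, in CPM on a log axis, with blue points for NOZ and red points for NOZ-R; black bars give the mean and SD of 3 libraries. The AKR1C genes, AKR1B10 and AKR1B1 sit higher in all 3 NOZ-R libraries, AKR1A1 sits lower, and the AKR7A genes overlap.

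AKR1C3 had the largest increase of the family. Its level was 4.74, 4.82 and 5.42 CPM in the NOZ libraries and 32.1, 33.4 and 33.5 CPM in the NOZ-R libraries. The lowest NOZ-R library was thus well above the highest NOZ library. The mean went from 4.99 CPM ± 0.369 to 33.0 CPM ± 0.785 (SD over n = 3 libraries per line), a 6.62-fold increase and a log2 fold change of 2.73 ± 0.0994 (SE, adjusted p = 6.02e-11 by edgeR). Of all tested genes, 2.78% had a higher fold change. AKR1C3 is annotated at chromosome 10, 5035354 to 5107686, on the forward strand (GRCh38).

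AKR1C1 (chromosome 10, 4963253 to 4983283, forward strand) was at 20.7, 16.8 and 16.8 CPM in NOZ and at 69.6, 74.3 and 72.7 CPM in NOZ-R. The lines were far apart here too, and the mean rose 3.97-fold, from 18.1 CPM ± 2.27 to 72.2 CPM ± 2.37 (SD over n = 3 libraries per line; log2 fold change 1.99 ± 0.0893 SE, adjusted p = 4.73e-10 by edgeR). AKR1C2 (chromosome 10, 4987400 to 5018031, reverse strand) was at 20.7, 17.8 and 16.3 CPM in NOZ and at 36.6, 39.0 and 41 CPM in NOZ-R. It rose 2.11-fold, the smallest increase of the 3 (log2 fold change 1.08 ± 0.0959 SE, adjusted p = 4.35e-07 by edgeR).

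AKR1C1 and AKR1C2 thus had nearly equal counts in NOZ and unequal counts in NOZ-R. The ratio of AKR1C1 to AKR1C2 counts was 1, 0.941 and 1.03 in the NOZ libraries and 1.90, 1.91 and 1.77 in the NOZ-R libraries. The difference of 0.91 on the log2 scale, from -0.02 ± 0.0659 to 0.89 ± 0.0602 (SD over n = 3 libraries per line), had an exact two-sided permutation p = 0.1, the smallest that 3 against 3 libraries can give. Since the genes share sequence, the ratio depends on how shared reads were counted. With the counts of AKR1C1, AKR1C2 and AKR1C3 added up, which does not depend on the split among them, the level was 46.2, 39.4 and 38.5 CPM in NOZ and 138.3, 146.6 and 147.2 CPM in NOZ-R. The sum rose by 1.80 ± 0.0757 on the log2 scale (SE, adjusted p = 2.51e-10 by edgeR).

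AKR1B10 (chromosome 7, 134527592 to 134541408, forward strand) was scarce in NOZ, at 5.14, 3.88 and 4.88 CPM, and was at 20.1, 19.6 and 19.2 CPM in NOZ-R. Every NOZ-R library was above every NOZ library, and the NOZ-R libraries lay close together. The mean rose 4.23-fold, from 4.63 CPM ± 0.667 to 19.6 CPM ± 0.475 (SD over n = 3 libraries per line; log2 fold change 2.08 ± 0.123 SE, adjusted p = 7.61e-09 by edgeR). Its close relative AKR1B15 had at most 10 counts in any library, against 70 to 364 counts of AKR1B10.

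AKR1B1 (chromosome 7, 134442350 to 134459284, reverse strand) was the member with the most counts in both lines. Its level was 137.8, 114.5 and 136.5 CPM in NOZ and 265.3, 293.5 and 264.0 CPM in NOZ-R. The lines did not overlap, and the lowest NOZ value was that of replicate 2. The mean rose 2.12-fold, from 129.6 CPM ± 13.1 to 274.3 CPM ± 16.7 (SD over n = 3 libraries per line; log2 fold change 1.08 ± 0.0749 SE, adjusted p = 3.60e-08 by edgeR). The test against a 2-fold change itself called AKR1C1, AKR1C3 and AKR1B10 but neither AKR1B1 (adjusted p = 0.399 by edgeR) nor AKR1C2 (adjusted p = 0.588 by edgeR).

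AKR1A1 (chromosome 1, 45550543 to 45570049, forward strand) was the 1 member that fell. Its level was 48.5, 40.7 and 45.2 CPM in NOZ and 33.9, 33.3 and 33.9 CPM in NOZ-R, with no overlap. The log2 fold change was -0.41 ± 0.0801 (SE, adjusted p = 0.000562 by edgeR), from 44.8 CPM ± 3.90 to 33.7 CPM ± 0.373 (SD over n = 3 libraries per line).

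The AKR7A genes, on the reverse strand of chromosome 1, did not pass the test. AKR7A2 (19303965 to 19312146) was at 20.1, 15.1 and 21.8 CPM in NOZ and at 17.1, 18.5 and 16.6 CPM in NOZ-R, and the ranges overlapped through NOZ replicate 2. Its log2 fold change was -0.12 ± 0.125 (SE, adjusted p = 0.411 by edgeR). Without NOZ replicate 2 it was called lower, at -0.27 (adjusted p = 0.0252 by edgeR), and likewise after GC correction, at -0.24 (adjusted p = 0.0467 by edgeR). AKR7A3 (19282558 to 19289250) was counted 25, 15 and 11 times in the NOZ libraries and 18, 10 and 11 times in those of NOZ-R. Its log2 fold change of -0.27 ± 0.359 (SE, adjusted p = 0.53 by edgeR) had the widest error of the family, and a difference was not detectable at this depth.

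Levels of different genes can be compared only per length. On the scale of the deposited FPKM (fragments per kilobase, scaled to the library total), the level of AKR1B1 was the highest in both lines, at 37.0 ± 3.66 in the parental and 71.7 ± 4.21 in the resistant line (SD over n = 3 libraries per line), and that of AKR7A3 the lowest, at 0.808 ± 0.229 and 0.616 ± 0.154. In NOZ, AKR1B1 was followed by AKR1A1 (15.0 FPKM), AKR7A2 (11.1 FPKM), AKR1C2 (3.14 FPKM), AKR1B10 (2.73 FPKM), AKR1C1 (2.16 FPKM) and AKR1C3 (1.33 FPKM). The libraries of AKR1C2, AKR1B10 and AKR1C1 overlapped between neighbours in this order. In NOZ-R the order was AKR1B1, AKR1B10 (10.6 FPKM), AKR1A1 (10.3 FPKM), AKR7A2 (9.33 FPKM), AKR1C3 (8.05 FPKM), AKR1C1 (7.86 FPKM) and AKR1C2 (6.10 FPKM). Here AKR1B10 overlapped AKR1A1, and AKR1C3 overlapped AKR1C1. AKR1B10 was below AKR7A2 in every NOZ library and above it in every NOZ-R library, and AKR1C3 likewise changed places with AKR1C2.

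These orders depend on the length used, and per kilobase of coding length AKR1C3 was below AKR1C2 in NOZ-R too. The FPKM values imply 8765 bases for AKR1C1, 6086 for AKR1C2, 3911 for AKR1C3, 3654 for AKR1B1, 3121 for AKR1A1, 1779 for AKR7A2, 1773 for AKR1B10 and 1215 for AKR7A3, whereas the coding sequences are 951 to 1080 bases long. On a scale of CPM (by library total) over kilobases of coding length, AKR1C1 was the second most abundant in NOZ-R, at 70.9 ± 2.05, and AKR1C2 the third, at 38.2 ± 2.04 (SD, n = 3). AKR1B1 came first on this scale too, with 142.2 ± 14.1 for the parental and 275.3 ± 16.2 for the resistant line. This scale favours genes with many bases outside the coding sequence, if reads from those bases were counted too. The transcripts that gave the coding sequences hold 6705 bases for AKR1C1, 3756 for AKR1C2, 1807 for AKR1C3 and 1360 for AKR1A1. The high place of AKR1C1 and AKR1C2 on it is therefore uncertain. The sum of the 8 genes was 78.5, 64.7 and 76.7 FPKM in NOZ and 122.2, 129.8 and 121.4 FPKM in NOZ-R. Of the summed FPKM, AKR1B1 made up 50.5% in NOZ and 57.5% in NOZ-R (54.9% and 56.7% per coding length, where the lines overlap), AKR1A1 20.5% and 8.29%, AKR1B10 3.71% and 8.50%, and AKR1C3 1.83% and 6.47%. On both scales the summed share of AKR1A1, AKR7A2 and AKR7A3 was smaller in each NOZ-R library than in any NOZ library.

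**Figure D2:**
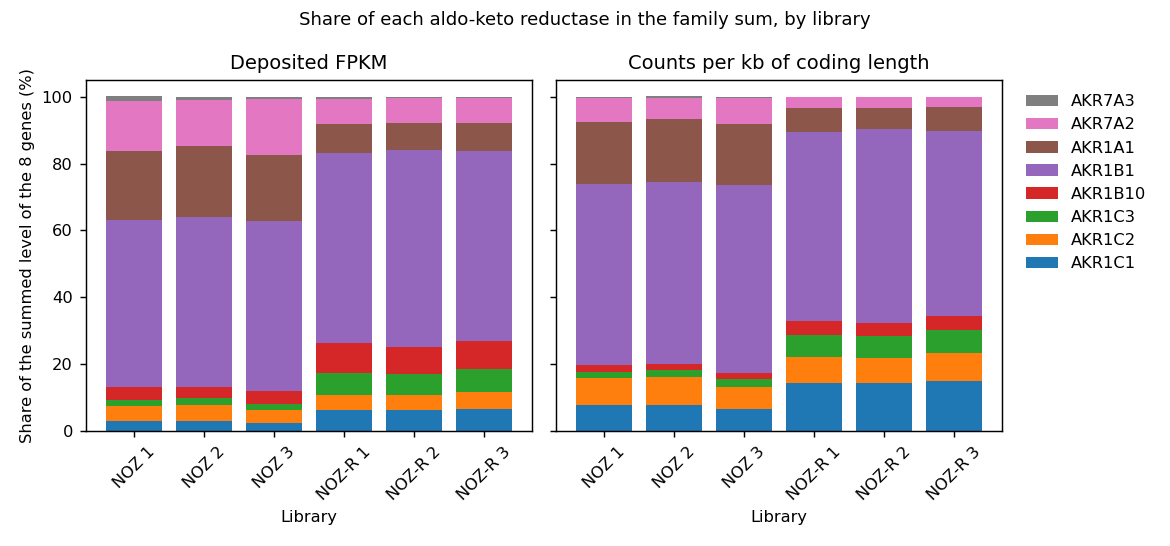
Share of each gene (percent, stacked) in the summed level of the 8 aldo-keto reductase genes in each library, from the deposited FPKM on the left and from counts per kilobase of coding length on the right. The share of AKR1A1 falls from 20.5% to 8.29% of the summed FPKM, and the AKR1C1, AKR1C3 and AKR1B10 parts are wider in each NOZ-R library than in any NOZ library on both scales, while the AKR1C2 parts overlap between the lines.

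The AKR1C genes rose while most of the nearest tested genes on chromosome 10 were lower. Of the 10 nearest tested protein-coding genes, 5 on each side, 9 were lower and 1 was higher in NOZ-R. Over all tested genes, the shares were 29.8% lower and 30.4% higher. The median log2 fold change of the 10 was -0.92 (range -1.57 to 0.33). They are not all close by, as they reach from base 1039152 to base 5889906 of the chromosome. Changes of at least 2-fold were measured for ANKRD16 (-1.57), the guanine nucleotide exchange factor gene NET1 (-1.34), the GDP dissociation inhibitor gene GDI2 (-1.04) and WDR37 (-1.01). The 1 higher neighbour was KLF6 (0.33), the nearest on its side of the locus, named after its value was seen. The median over the 553 tested genes of chromosome 10 was -0.60. Relative to that median, the AKR1C log2 fold changes were 2.59 for AKR1C1, 1.68 for AKR1C2 and 3.33 for AKR1C3.

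Around AKR1B1 and AKR1B10 the neighbours went both ways, 4 higher, 3 lower and 3 not passing, with a median of -0.23 and a chromosome 7 median of -0.29 over 666 tested genes. PLXNA4, a semaphorin receptor gene, was at 4.27 and EXOC4, an exocyst subunit gene, at -1.24. Of the neighbours of AKR1A1, 3 were higher and 2 lower (median 0.04), and of those of the AKR7A genes 6 were higher and the others did not pass (median 0.40). The chromosome 1 median was 0.17. AKR1A1 was thus lower while its chromosome's median was above 0.

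**Figure D3:**
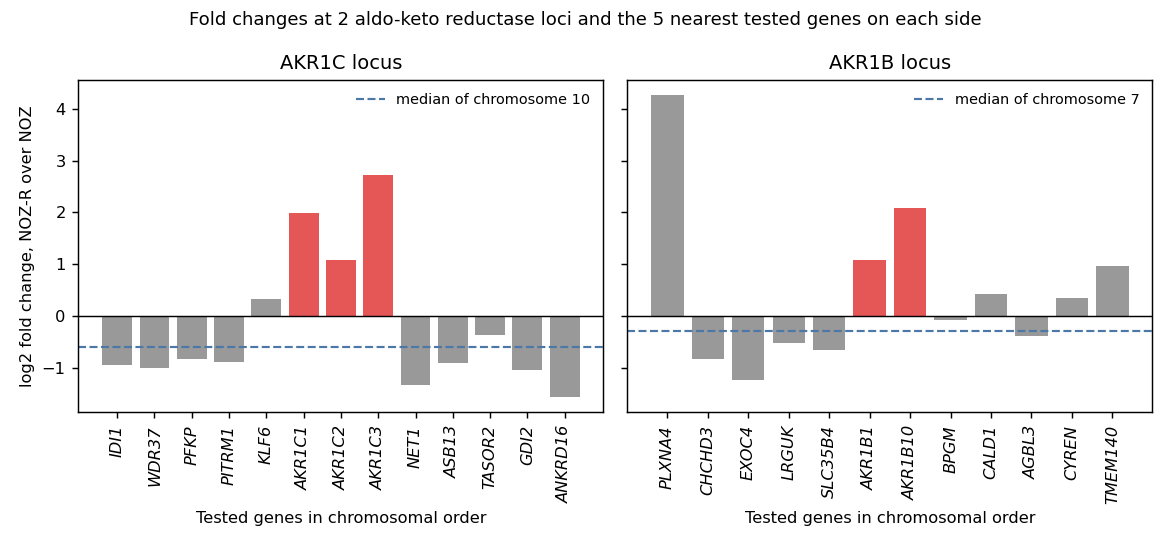
Log2 fold change (NOZ-R over NOZ) of the AKR1C genes on the left and the AKR1B genes on the right, in red, between the 5 nearest tested protein-coding genes on each side, in grey and in chromosomal order; the dashed line is the median of the chromosome. The AKR1C genes lie between 1.08 and 2.73, while 9 of their 10 neighbours lie below 0.

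The AKR1C genes also resemble each other upstream of their start sites. RefSeq start sites (GRCh38.p14) were found for 7 of the 8 genes, 10 sites in all; AKR1B10 had no entry. The 250 bases before the start sites of the AKR1C genes are shown for this likeness. Whether it bears on their levels was not tested. Capitals mark the letters ATTGG, an inverted CCAAT box, which all 4 windows hold 73 to 86 bases before the start.
AKR1C1, chr10:4963165-4963414, forward strand: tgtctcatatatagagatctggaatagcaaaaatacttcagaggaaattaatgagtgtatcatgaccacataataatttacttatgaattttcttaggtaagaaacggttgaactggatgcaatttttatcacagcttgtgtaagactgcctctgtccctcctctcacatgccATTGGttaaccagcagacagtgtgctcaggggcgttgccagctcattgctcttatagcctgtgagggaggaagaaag
AKR1C2, chr10:5003858-5004107, reverse strand: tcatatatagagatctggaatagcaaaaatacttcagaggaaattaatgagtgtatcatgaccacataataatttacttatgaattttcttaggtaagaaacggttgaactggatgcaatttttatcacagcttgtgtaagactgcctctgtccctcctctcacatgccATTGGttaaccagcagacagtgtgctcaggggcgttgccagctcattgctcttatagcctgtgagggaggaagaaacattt
AKR1C3, first site, chr10:5048531-5048780, forward strand: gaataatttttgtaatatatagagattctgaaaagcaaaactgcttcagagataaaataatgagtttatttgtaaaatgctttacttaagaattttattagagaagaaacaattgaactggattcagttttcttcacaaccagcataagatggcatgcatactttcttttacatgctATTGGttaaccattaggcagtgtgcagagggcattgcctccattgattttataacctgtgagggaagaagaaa
AKR1C3, second site, chr10:5094164-5094413, forward strand: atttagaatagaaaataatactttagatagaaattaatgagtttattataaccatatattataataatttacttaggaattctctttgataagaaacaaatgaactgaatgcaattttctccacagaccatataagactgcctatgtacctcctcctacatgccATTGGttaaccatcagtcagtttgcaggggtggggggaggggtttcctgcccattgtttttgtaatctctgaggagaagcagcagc
The windows of AKR1C1 and AKR1C2 were identical at 96.5% of aligned positions, and each matched the AKR1C3 windows at 69.2% to 71.4%. On either strand, ATTGG occurred in 5 of the 10 windows of the family, those of the AKR1C genes and 1 of AKR1B1, and in 32.0% of all 35116 windows of this length. The core of the antioxidant response element that NRF2 binds, TGACNNNGC, was found before AKR7A2 only (2 of 10 windows, which overlap, against 10.9% of all windows). The AP-1 letters TGANTCA, which can overlap that core, were in 0 of 10 (6.6% of all). The GC box GGGCGG was in 6 of 10, all outside the AKR1C genes (42.6% of all), and TATAAA was in 1 of 10, the first AKR1C3 site (10.7% of all). Sites farther from the start were not searched.

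Genes of the NRF2 pathway were measured beside the family. Of 16 regulators, all tested, 9 were higher (56.2%), 4 lower (25.0%) and 3 did not pass, with a median of 0.33. Over all tested genes, 30.4% were higher and 29.8% lower. NFE2L2, which encodes NRF2, was at 64.2, 76.9 and 62.0 CPM in NOZ and at 118.3, 119.4 and 127.3 CPM in NOZ-R. The lines did not overlap, and the log2 fold change was 0.84 ± 0.0799 (SE, adjusted p = 8.02e-07 by edgeR). KEAP1, its negative regulator, was also higher, at 0.40 ± 0.0760 (SE, adjusted p = 0.000494 by edgeR), and so was MAFF, a small MAF partner, at 1.31. CUL3 was lower at -0.24, a call lost in 4 of 19 alternatives, among them GC correction and leaving out NOZ-R replicate 2. BTRC, a subunit of another ubiquitin ligase that acts on NRF2, was lower at -1.06. BTRC lies on chromosome 10.

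Of 34 listed NRF2 targets outside the family, 26 were tested, and 13 were higher, 7 lower and 6 did not pass. Their median was 0.17, against 1.08 for the aldo-keto reductases and -0.01 for all tested genes. ALDH3A1, an aldehyde dehydrogenase gene, rose from 132.0, 118.4 and 138.7 CPM in NOZ to 627.0, 603.6 and 605.6 CPM in NOZ-R. Its log2 fold change of 2.24 ± 0.0627 (SE, adjusted p = 3.98e-12 by edgeR) was close in size to those of AKR1B10 and AKR1C1. CYP4F11, a cytochrome P450 gene, rose by 2.38, the malic enzyme gene ME1 by 1.62 and GCLM, the modifier subunit of glutathione synthesis, by 1.35. Other widely used NRF2 targets had smaller differences. NQO1, a quinone reductase gene, was at 287.3, 260.7 and 289.6 CPM in NOZ and at 330.4, 337.1 and 328.3 CPM in NOZ-R, a log2 fold change of 0.25 ± 0.0551 (SE, adjusted p = 0.00146 by edgeR). This call was lost in 4 of 19 alternatives, among them scaling by library size alone and both limma analyses of FPKM. TXNRD1 was at 0.11 and HMOX1 at -0.28, and neither passed (adjusted p = 0.0847 by edgeR and 0.370). TXNRD1 was called without NOZ replicate 2, and its sign turned in 3 of 19 alternatives, among them scaling by library size alone. PIR was lower at -1.32, and the thioredoxin gene TXN and the cystine transporter gene SLC7A11, named after their values were seen, were lower at -0.51 and -0.49.

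**Figure D4:**
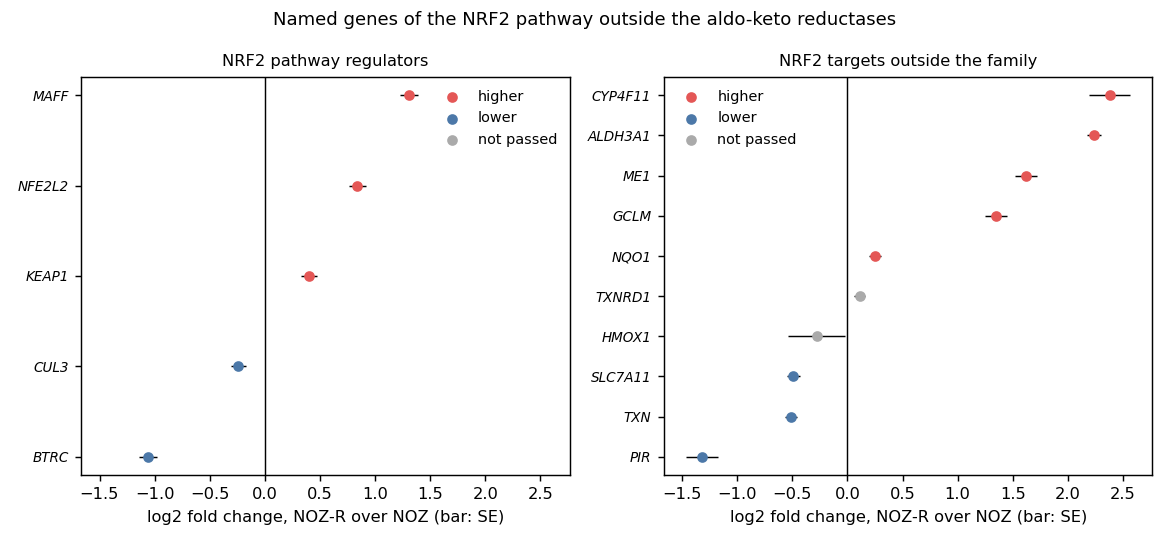
Log2 fold change (NOZ-R over NOZ, horizontal axis) with its SE of the NRF2 regulators named in the text on the left and of the named NRF2 targets outside the family on the right; red points were higher, blue points lower and grey points did not pass the test. Among the named targets, CYP4F11 at 2.38 and ALDH3A1 at 2.24 stand at the top, NQO1 lies at 0.25, and PIR at -1.32 stands at the bottom.

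Reductases of other families were counted beside them. The list of 24 genes outside the superfamily mixes carbonyl reductases with other reductases and dehydrogenases, such as BLVRA, BLVRB, NQO2, PTGR1, PTGR2 and ADH5. Of the 24, 20 were tested (median -0.03). Of these, 5 were higher (25.0%, against 30.4% of all tested genes), 8 lower (40.0% against 29.8%) and 7 did not pass. CBR1, the main cytosolic carbonyl reductase of another enzyme family, was at 40.6 CPM ± 1.41 in the parental and 42.5 CPM ± 2.83 in the resistant line (SD over n = 3 libraries per line; log2 fold change 0.07, adjusted p = 0.468 by edgeR), and its sign turned in 5 of 19 alternatives. Of the 9 other genes of the aldo-keto reductase superfamily, 3 were tested. KCNAB2, a potassium channel beta subunit, was lower at -0.52, KCNAB1 did not pass (it was called without NOZ replicate 2), and KCNAB3 passed narrowly at 1.29 with 1 to 28 counts per library (adjusted p = 0.0497 by edgeR), a call lost in 10 of 18 alternatives. The liver genes AKR1C4 and AKR1D1 had 0 counts in every library, as had AKR1C8, and AKR1E2 had at most 5.

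Genes on the steps before and after the aldo-keto reductases were read from 3 lists. Of 41 steroid and prostaglandin enzymes, 20 were tested (median 0.12). Of these, 7 were higher (35.0%, against 30.4% of all tested genes), 4 lower and 9 did not pass. The share of lower genes was below the 29.8% of all tested genes. PTGS2, the inducible cyclooxygenase that makes the prostaglandin precursor used by AKR1C3 and AKR1B1, rose from 1.25, 0.997 and 1.35 CPM to 51.0, 53.3 and 56.5 CPM, a log2 fold change of 5.48 ± 0.124 (SE, adjusted p = 4.93e-13 by edgeR). The prostacyclin synthase gene PTGIS rose from 3.18 to 25.1 CPM, and the thromboxane synthase gene TBXAS1 was lower at -1.69. HPGD, which degrades prostaglandins, was counted 3, 1 and 0 times in the NOZ libraries and 39, 22 and 28 times in those of NOZ-R (adjusted p = 9.32e-06 by edgeR). Of the enzymes of steroid synthesis, named after their values were seen, CYP17A1, HSD3B1 and HSD3B2 had 0 counts in every library, and CYP11A1 and CYP19A1 at most 2. SRD5A1, which makes dihydrotestosterone, had 838 to 1101 counts per library and did not pass (log2 fold change 0.15, adjusted p = 0.0856 by edgeR).

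Of 18 genes of the polyol pathway and of methylglyoxal removal, 15 were tested (median -0.05). Of these, 5 were higher (33.3%, against 30.4% of all tested genes), 5 lower (33.3% against 29.8%) and 5 did not pass. SORD, sorbitol dehydrogenase, which acts on the product of AKR1B1, was at -0.18 ± 0.0663 (SE, adjusted p = 0.0303 by edgeR), a call lost in 9 of 19 alternatives. Hexokinases compete with AKR1B1 for glucose. HK2 rose by 1.73, to 42.4 CPM in NOZ-R, while the more abundant HK1, named after its values were seen, was lower at -0.39 (adjusted p = 0.000121 by edgeR). Of 27 retinoid genes, 19 were tested (median 0.18). Of these, 9 were higher (47.4%, against 30.4% of all tested genes), 5 lower (26.3% against 29.8%) and 5 did not pass. The retinol uptake receptor gene STRA6 rose from 3.10 CPM ± 0.631 to 52.5 CPM ± 4.40 (SD over n = 3 libraries per line), a log2 fold change of 4.06 ± 0.127 (SE, adjusted p = 1.20e-11 by edgeR). RDH10, which oxidises retinol to retinal, was lower at -1.01, and ALDH1A3, which oxidises retinal further, was at -0.10 and did not pass (adjusted p = 0.342 by edgeR), but was called lower in 5 of 19 alternatives, among them library size alone and GC correction.

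The genes whose profile over the 6 libraries was most like that of a member were found by the Euclidean distance between centred log2 CPM profiles, over 10164 genes that averaged 5 CPM or more. With 2 lines, this measure mainly finds genes of similar fold change. Nearest to AKR1C3 were OAS2, PARP12 and APCDD1L-DT (distances of 0.144 to 0.184), and nearest to AKR1C1 were TRIM21, SEMA4F and PLA2R1 (0.0658 to 0.233). FSTL3, PSMB9 and ANXA6 were nearest to AKR1B10 (0.0752 to 0.189), MAST4, HERPUD1 and PRR5L to AKR1C2 (0.191 to 0.198), and DUS3L, PKM and CAPG to AKR1B1 (0.0963 to 0.116). No gene was nearest to more than 1 member.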

How the data were processed

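Poly-A RNA-seq libraries of NOZ and NOZ-R (3 each, grouped by their titles) were used. The authors deposited raw counts for each gene and FPKM values, which here equal the count over the library total and 1 length per gene. The submitters' processing notes name fastp 0.22.0 and GRCh38. Aligner, counting tool, strand setting and annotation: not given in the sources used here.

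Counts were filtered (filterByExpr), scaled with TMM factors (0.954 to 1.05) and tested with edgeR 4.0.16 (quasi-likelihood test, R 4.3.3) over all 14386 genes with Benjamini-Hochberg adjustment at 0.05. The script was checked on simulated counts. The SE is the log2 fold change over the square root of F. CPM use the scaled library sizes. Alternatives were other scalings and filters, DESeq2 1.42.0, limma 3.58.1 on log2(FPKM + 1) and log2(FPKM + 0.1), a replicate block, GC correction (loess span 0.3), a stricter threshold (0.01), glmTreat against a 2-fold change, summed AKR1C counts and leaving out each library.

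Positions and coding sequences came from GENCODE release 29 (GRCh38), matched by symbol or Ensembl identifier for 13915 tested genes, and promoters from RefSeq. The members and lists were chosen with earlier results of these data known. Every member was named. From the other lists, genes past the test with at least a 2-fold change and 5 CPM were named (up to 4 each way), as were NFE2L2, KEAP1, NQO1, GCLM, HMOX1, TXNRD1, SORD, CBR1, ALDH1A3, PTGS2 and HPGD. Further list genes in the text, such as CUL3 and KCNAB2, were named after their values were seen. Not every gene chosen this way is reported here.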

Additional observations from a re-analysis of the deposited data

How the results depend on the processing

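Across 19 alternatives, the count of higher aldo-keto reductase genes was 5 except in the test against a 2-fold change, where it was 3. The count of lower genes was 1 in the main analysis, 2 after GC correction, 1 to 2 when 1 library was left out (2 without NOZ replicate 2) and 0 in edgeR's test against a 2-fold change, where 0 were lower at an unadjusted p under 0.05 as well; DESeq2's Wald test called 1 lower. For NRF2 targets outside the family, the counts of 13 higher and 7 lower became 4 and 0 in the test against a 2-fold change (1 lower at an unadjusted p under 0.05; DESeq2's Wald test called 7 lower) and 11 to 15 and 6 to 7 with 1 library left out. Scaling by library size alone, both limma analyses of FPKM and the replicate block with GC correction gave 9 higher and 7 lower, and GC correction alone and the threshold of 0.01 gave 10 and 7. The log2 fold changes of AKR1C3, AKR1C1 and AKR1B10 kept direction and call in all 20 alternatives, with ranges of 1.80 to 2.79, 1.49 to 2.11 and 1.64 to 2.18; the lowest for AKR1C3 is the summed count of the 3 genes. Without TMM factors the median over every tested gene was -0.142, against -0.0127 with them.

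With the replicate block, 5 aldo-keto reductase genes were higher and 1 lower, and 12 NRF2 targets were higher and 7 lower. Deviations of same-numbered libraries correlated at 0.0682, -0.0224 and -0.0365, and those of differently numbered ones at -0.0874 to 0.104. No deviation shared by number was seen, which cannot show whether the libraries were prepared in pairs. Depth limits AKR7A3, with 10 to 25 counts per library.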
